A study of Bos taurus with 20 samples.

Results

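Myostatin, the insulin-like growth factors and the proteins that receive or hold them were followed in bovine neck muscle through 9 genes: MSTN, ACVR2B, FST, IGF1, IGF1R, IGF2, IGFBP3, IGFBP4 and IGFBP5. A probe was taken when the gene name or the symbol in its description was that of a listed gene, older symbols included. This found 8 of the 9 genes, through 11 of the 21475 probes of the array. MSTN was found under its older symbol GDF8, and no probe was matched to ACVR2B, the activin receptor that binds myostatin. FST, IGF2 and IGFBP5 had 2 probes each. Below, probe 1 of a gene is the one with the higher mean signal.

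Myostatin is a secreted member of the TGF-beta family that muscle fibres make and that holds back muscle growth. It binds activin type II receptors, which act through SMAD proteins, and follistatin (FST) captures it outside the cell. IGF1 and IGF2 act in the other direction: they bind the IGF1 receptor, which drives protein synthesis through IRS, PI3-kinase and AKT, and IGF-binding proteins carry them and set how much reaches the receptor. Glucocorticoids such as dexamethasone are known to act on both arms in muscle.

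The study measured total RNA from neck muscle on single-colour arrays, in 20 samples of 10 cattle. Treated animals received dexamethasone, a synthetic glucocorticoid, at 0.4 mg per animal per day by mouth for 31 days and, by intramuscular injection, the oestrogen estradiol, 6 times at a weekly dose of 5 mg per animal. Control animals are labelled only as control. The muscle was collected at the slaughterhouse, and every sample was kept under vacuum at 4 °C. The 4 groups were treated muscle at day 14 of storage, treated muscle at day 0, control muscle at day 14 and control muscle at day 0, each with 5 samples. The same animals gave both days: DE27, DE29, DE30, DE31 and DE32 were treated, and K3, K6, K8, K9 and K10 were controls. Since both drugs were given together, their parts in any difference cannot be told apart. The day 14 samples are stored meat, so a difference between days is one in the RNA recovered from a tissue after death.

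Of 12 skeletal muscle markers 10 had a matched probe, and all 10 were tested, as defined below. So were all 8 fibroblast, 6 endothelial, 6 smooth muscle and pericyte and 6 macrophage markers, so this does not single out muscle. In control muscle at day 0 the median summed level was 20.12 for the skeletal muscle markers and 15.68 for the fibroblast markers. Signal was lower after storage: the 75th percentile of processed signal lay between 325 and 451 in treated muscle at day 14 and between 719 and 949 in treated muscle at day 0, against 278 to 534 in control muscle at day 14 and 657 to 936 in control muscle at day 0. Levels below are log2 processed signal, centred on each array's 75th percentile, so they are relative to the other genes of the same array. A probe entered the tests with 5 or more arrays, of 20, on which the scanner software marked it as well above background. That held for 15430 probes, all 11 listed here among them. "Passed" means a Benjamini-Hochberg adjusted p under 0.05 over all 15430 probes in a limma fit, and values after ± are standard errors unless marked SD.

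At slaughter, MSTN was the member that stood furthest apart between treated and control muscle. Its level in treated muscle at day 0 was 6.74 in DE27, 5.52 in DE29, 5.92 in DE30, 4.46 in DE31 and 6.72 in DE32, against 7.96 in K3, 7.55 in K6, 6.55 in K8, 7.53 in K9 and 8.09 in K10 in control muscle. The groups met only at K8, the lowest control, which lay below DE27 and DE32. The difference was -1.66 ± 0.44 on the log2 scale, 3.17-fold lower in treated muscle, with a 95% interval of -2.64 to -0.69. The unadjusted p was 0.0032 and the adjusted p 0.0782, so MSTN did not pass. In muscle as a whole, fewer cells of a type and less RNA per cell cannot be told apart. Most markers of muscle lay on the same side at day 0: 3 of 10 skeletal muscle markers lay above 0, with a median of -0.43, and 0 passed. Their summed level ran between 19.49 and 20.10 in treated and between 19.93 and 20.34 in control muscle. Of 4 tested satellite cell markers 0 lay above 0, with a median of -0.42, and 1, the cadherin gene CDH15, passed as lower (-0.69 ± 0.16, adjusted p = 0.0460), with summed levels between 12.17 and 12.84 in treated and between 12.41 and 13.44 in control muscle. Above 0 lay 6 of 6 endothelial, 6 of 6 macrophage, 4 of 4 tested adipocyte and 5 of 6 smooth muscle and pericyte markers. For fibroblast markers it was 4 of 8, and none on these other lists passed. Of all tested probes 48.5% lay above 0. The part of any of these cells in the MSTN difference was not tested.

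The arrays were spread over 6 slides, and 3 of these held both treatments at day 0. The MSTN difference was below 0 within each, at -2.24 on slide 1, -1.84 on slide 3 and -1.35 on slide 6, with 1 or 2 arrays of a group on each. With the slide as a block the difference was -1.85 and the adjusted p 0.0356. That was the only one of 16 alternative settings under which MSTN passed, and over all 16 the difference ran between -1.91 and -0.92 and the adjusted p between 0.0356 and 0.469.

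**Figure D1:**
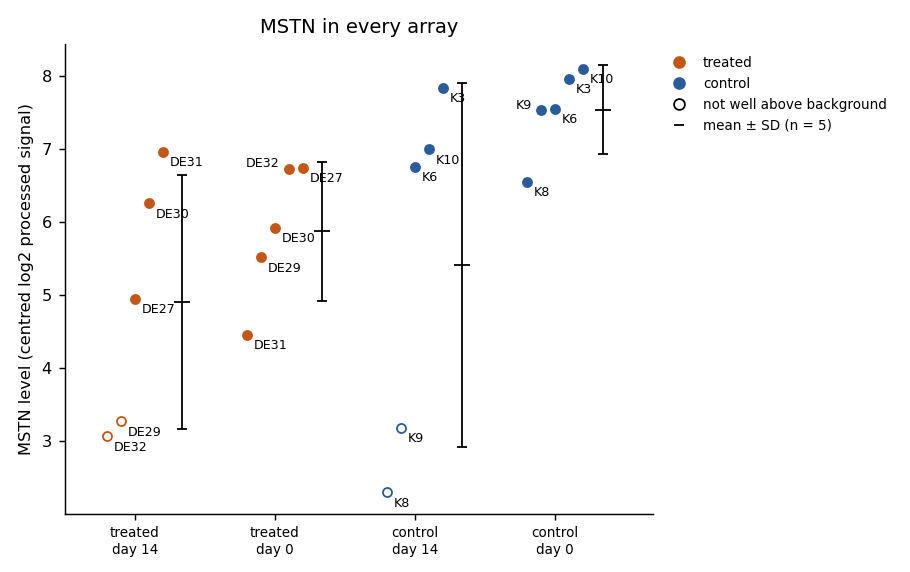
MSTN level in each of the 20 arrays, as centred log2 processed signal, by treatment and day of storage. Points are animals, open where the probe was not well above background, and bars are mean ± SD of 5 samples. At day 0 only control K8, at 6.55, lies among the treated samples, while at day 14 each treatment has 2 open points at the bottom.

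At day 14 the MSTN probe was well above background in 3 of 5 samples of either treatment. Its level in treated muscle was 4.95 in DE27, 3.28 in DE29, 6.26 in DE30, 6.96 in DE31 and 3.07 in DE32, against 7.83 in K3, 6.75 in K6, 2.30 in K8, 3.18 in K9 and 6.99 in K10 in control muscle. DE29, DE32, K8 and K9 were the samples not well above background. The groups overlapped over most of their range, and the difference was -0.51 ± 1.14 (adjusted p = 0.897), with a 95% interval of -3.01 to 1.99. Within slides it was -2.64, 3.42 and -3.92 on slides 2, 4 and 5, so neighbouring arrays disagreed in sign. The 2 spots of the MSTN probe differed by up to 2.36 on the log2 scale on an array, against a median of 0.15 over the 20 arrays.

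Of the growth factors, IGF1, the ligand that liver and muscle make under growth hormone, read 7.98 in DE27, 8.15 in DE29, 7.46 in DE30, 8.19 in DE31 and 7.37 in DE32 at day 0, against 7.51 in K3, 7.46 in K6, 7.76 in K8, 7.45 in K9 and 7.17 in K10. Its 3 highest treated samples lay above every control, and the other 2 lay among them. The difference was 0.36 ± 0.20 (adjusted p = 0.389), with a 95% interval of -0.07 to 0.79. At day 14 it was -0.26 ± 0.42 (adjusted p = 0.849).

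IGF2, the growth factor best known from fetal muscle, did not differ between treatments at day 0 beyond the spread between animals. Probe 1 averaged 15.05 ± 0.47 in treated muscle and 14.94 ± 0.26 in control muscle (SD, n = 5 each), a difference of 0.12 ± 0.23 (adjusted p = 0.842). Probe 2 gave 0.03 ± 0.28 (adjusted p = 0.971). At day 14 the differences were -0.29 ± 0.31 for probe 1 and 0.42 ± 0.28 for probe 2, and neither passed.

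IGF1R, the receptor for both growth factors, read 6.77 in DE27, 6.05 in DE29, 7.09 in DE30, 6.75 in DE31 and 6.95 in DE32 at day 0, against 6.07 in K3, 5.98 in K6, 6.73 in K8, 5.97 in K9 and 6.29 in K10. All treated samples but DE29 lay above all controls. The difference was 0.51 ± 0.22, with an unadjusted p of 0.0409 and an adjusted p of 0.265, so it did not pass. Within slides 1, 3 and 6 it was 0.02, 0.57 and 0.48. At day 14 the difference was 0.23 ± 0.24 (adjusted p = 0.759).

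Among the binding proteins at day 0, no probe differed by more than 0.23 in size on the log2 scale. FST gave -0.06 ± 0.42 with probe 1 and -0.23 ± 0.41 with probe 2. IGFBP3, the main carrier of IGF in blood, gave -0.11 ± 0.31. IGFBP4, which mostly holds IGF away from its receptor, gave 0.23 ± 0.16. IGFBP5, the binding protein tied to muscle cell differentiation, gave -0.13 ± 0.30 with probe 1 and -0.10 ± 0.28 with probe 2. Adjusted p lay between 0.515 for IGFBP4 and 0.958 for FST probe 1. These intervals are wide: that of FST probe 1, -0.99 to 0.86, holds changes of nearly a log2 unit in either direction.

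In all, 0 of the 11 probes passed between treated and control muscle at day 0 in the limma fit, where 2.45% of all tested probes did. At an unadjusted p under 0.05 there were 2 of 11, MSTN and IGF1R, against 17.3% of all tested probes. At day 14, 0 of 11 passed, against 0.0713% of all tested probes, and IGFBP3 was the 1 member with an unadjusted p under 0.05, against 10.4% of all tested probes. No member's groups were free of overlap between treatments on either day, against 5.88% of all tested probes at day 0 and 2.3% at day 14.

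IGFBP3 at day 14 read 9.79 in DE27, 9.91 in DE29, 10.33 in DE30, 11.45 in DE31 and 11.06 in DE32, against 11.38 in K3, 12.19 in K6, 11.49 in K8, 11.76 in K9 and 10.73 in K10. The 3 lowest samples were treated, and DE31 and DE32 lay among the controls. The difference was -1.0 ± 0.36, with an unadjusted p of 0.0183 and an adjusted p of 0.393. It was -2.34 among the arrays of scan session 1 and -0.29 among those of session 2; session 3 held control arrays only at day 14. Fibroblast markers lay on the same side: 0 of 8 lay above 0 between treated and control muscle at day 14, with a median of -0.94, and 0 of 8 passed. The summed level of these 8 markers ran between 12.97 and 15.29 in treated muscle and between 14.13 and 16.43 in control muscle at day 14. Of 6 smooth muscle and pericyte markers, 0 lay above 0 as well, with a median of -0.69, and their summed level ran between 13.89 and 15.93 in treated and between 14.51 and 16.60 in control muscle. On the other side of 0 lay 9 of 10 skeletal muscle markers (median 0.51) and 3 of 4 tested satellite cell markers. Above 0 were also 2 of 6 endothelial, 2 of 6 macrophage and 1 of 4 tested adipocyte markers. Of all tested probes 55.0% lay above 0, and no marker on any of these lists passed. The part of any of these cells in the IGFBP3 difference was not tested.

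**Figure D2:**
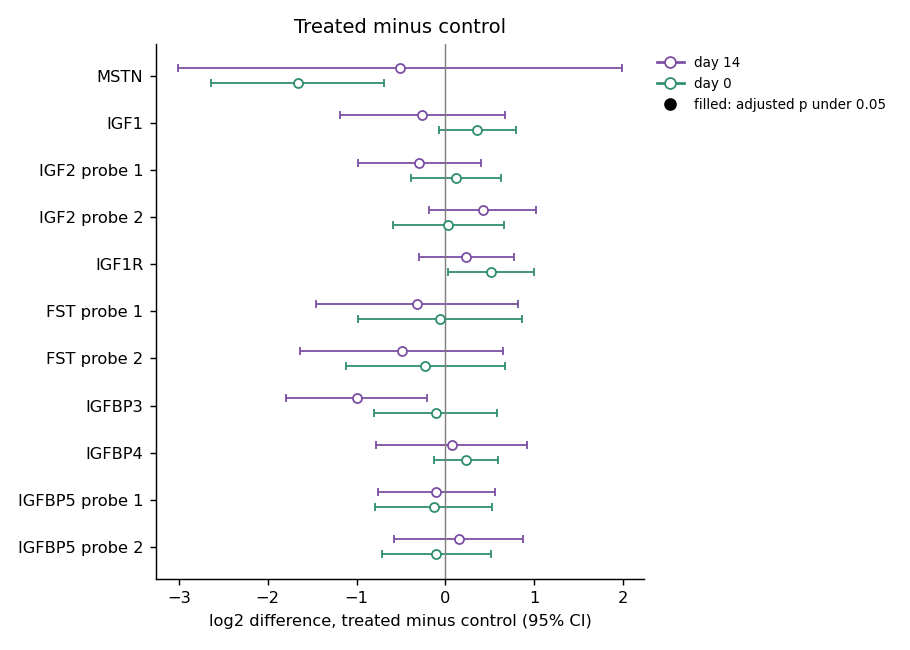
Difference between treated and control muscle on the log2 scale for the 11 probes, at day 14 and day 0, with 95% confidence intervals from limma and 5 samples per group. No symbol is filled, since no probe passed, and at day 0 the MSTN interval of -2.64 to -0.69 and the IGF1R interval of 0.03 to 1.0 are the ones clear of 0.

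Storage changed more of the array than treatment did, and 4 of the 11 probes passed between day 14 and day 0 over all 10 animals, with treatment as a covariate, where 54.6% of all tested probes passed. They were both IGF2 probes, IGFBP5 probe 2 and IGFBP4, all higher at day 14. In treated animals 2 of 11 passed, against 29.6% of all tested probes, and in control animals 3 of 11, against 39.1%. None of these shares is above that of all probes. These fits took the samples of the 2 days as independent and did not use the pairing by animal. With the animal as a block, MSTN (adjusted p = 0.0427) and IGFBP5 probe 1 (0.0329) passed as well over all animals. In control animals MSTN then passed (0.0438), while IGF2 probe 2 (0.0867) and IGFBP5 probe 2 (0.0621) did not. The median difference over all tested probes was 0.10 in treated animals, 0.09 in control animals and 0.10 over all, against which the members' values are to be read.

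Relative to each array's 75th percentile, IGF2 was higher at day 14 in all 10 animals by probe 1. That percentile was itself lower at day 14, so the rise is one beside other probes and not necessarily a gain in signal. Treated muscle read 15.40 in DE27, 16.23 in DE29, 14.55 in DE30, 15.78 in DE31 and 15.99 in DE32 at day 14, against 15.39, 15.18, 14.27, 14.99 and 15.43 in the same animals at day 0. The gain in DE27 was 0.01, and the groups overlapped. Control muscle read 15.70 in K3, 16.01 in K6, 16.13 in K8, 16.26 in K9 and 15.32 in K10 at day 14, against 15.07, 14.83, 14.61, 14.88 and 15.30 at day 0. The control groups did not overlap, although K10 gained only 0.02. The difference was 0.54 ± 0.33 in treated animals (adjusted p = 0.242) and 0.95 ± 0.21 in control animals (adjusted p = 0.0058), and it passed over all animals at 0.74 ± 0.20 (adjusted p = 0.0041), under each of 17 alternative settings too.

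IGF2 probe 2, whose signal was low and not well above background in K6 at day 14, went the same way. Treated muscle read 5.72 in DE27, 5.72 in DE29, 5.74 in DE30, 6.22 in DE31 and 6.11 in DE32 at day 14, against 5.49, 4.50, 4.33, 4.10 and 4.81 at day 0. All 5 treated samples at day 14 lay above all 5 at day 0, a difference of 1.26 ± 0.26 (adjusted p = 0.0050). In control animals it was 0.87 ± 0.30 (adjusted p = 0.0397), and K6 alone was lower at day 14. That call was lost in 6 of 11 alternative settings: without K3, K8 or K9 the adjusted p was 0.104, 0.143 or 0.197, with the animal as a block 0.0867, with the scan session as a block 0.0760 and with quantile normalization 0.182, where the difference was 0.56. Over all animals probe 2 gave 1.06 ± 0.20 (adjusted p = 0.00021). The lowest level of a probe well above background lay between 2.07 and 2.71 on the day 0 arrays. On the day 14 arrays it lay between 2.95 and 3.73. With no filter on dim probes, the median storage difference of all probes was 0.39 in treated, 0.37 in control and 0.41 in all animals. The part of this shift of dim probes in the rise of probe 2 was not tested. Groups free of overlap made up 20.4% of all tested probes in treated animals and 25% in control animals.

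IGFBP5 gave opposite answers by probe. The 2 matches differ in kind: probe 2 carries IGFBP5 as its gene name, while probe 1 was matched only by the symbol in its description. Probe 2 in treated muscle read 8.78 in DE27, 9.50 in DE29, 8.66 in DE30, 9.54 in DE31 and 9.68 in DE32 at day 14, against 8.38, 8.13, 7.74, 7.77 and 7.84 at day 0, with no overlap. In control muscle it read 9.74 in K3, 9.81 in K6, 8.69 in K8, 8.80 in K9 and 8.38 in K10 at day 14, against 8.40, 7.57, 7.28, 8.36 and 8.77 at day 0, higher in all but K10. The differences were 1.26 ± 0.24 in treated animals (adjusted p = 0.0037), 1.01 ± 0.36 in control animals (adjusted p = 0.0430) and 1.14 ± 0.22 over all (adjusted p = 0.00024). The call in control animals was lost in 7 of 12 alternative settings: without K3, K6, K8 or K9 (adjusted p between 0.0833 and 0.178), with the animal as a block (0.0621), with the slide as a random block (0.0782) and with quantile normalization (0.0510).

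Probe 1 of IGFBP5 in treated muscle read 12.71 in DE27, 13.13 in DE29, 12.70 in DE30, 13.21 in DE31 and 12.45 in DE32 at day 14, against 13.63, 13.23, 12.99, 13.37 and 13.43 at day 0. It was lower in all 5 treated animals and in 3 of 5 controls, by -0.51 ± 0.21 over all animals (adjusted p = 0.0506; 0.0329 with the animal as a block). The change of probe 2 minus that of probe 1 within an animal averaged 1.64 ± 0.56 (SD, n = 10) and was above 0 in 10 of 10 animals. A two-sided exact permutation test that flips the sign of each animal's value gave p = 0.00195, the smallest 10 animals allow, and 0.00586 adjusted over the 3 genes with a pair of probes. At day 0 the 2 probes had gone together across the 10 arrays, with a Pearson r of 0.86.

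FST, the captor of myostatin and activin, showed a smaller split of the same kind. The change of probe 2 minus that of probe 1 averaged -0.65 ± 0.51 (SD, n = 10), was above 0 in 1 of 10 animals and had p = 0.0039 in the same exact test (0.00586 adjusted). Probe 2 alone gave -0.72 ± 0.34 between day 14 and day 0 over all animals (adjusted p = 0.0800), and probe 1 gave -0.07 ± 0.35. For IGF2 the pair differed by 0.32 ± 0.80 (SD, n = 10) with an exact permutation p of 0.242. With this spread the test does not show that the pair moved together. K6 changed by 1.18 with probe 1 and by -0.36 with probe 2, which was dim there at day 14. At day 0 the Pearson r of the pair was 0.58.

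IGFBP4 passed over all animals at 0.56 ± 0.22 (adjusted p = 0.0333). Its level in treated muscle was 8.72 in DE27, 9.80 in DE29, 8.87 in DE30, 9.19 in DE31 and 10.71 in DE32 at day 14, against 9.21, 9.03, 9.15, 8.56 and 8.94 at day 0. In control muscle it was 10.04 in K3, 9.05 in K6, 9.56 in K8, 9.63 in K9 and 8.65 in K10 at day 14, against 8.60, 8.47, 8.92, 8.77 and 8.96 at day 0. DE27, DE30 and K10 were lower at day 14 and the other 7 animals higher. Leaving out K3, K6, K8, K9, DE29, DE31 or DE32 ended the call, with an adjusted p between 0.053 and 0.0923.

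MSTN was lower at day 14 in 5 of 5 control animals and 3 of 5 treated animals, DE30 and DE31 being the exceptions. The difference was -0.97 ± 0.75 in treated animals (adjusted p = 0.353), -2.12 ± 0.97 in control animals (adjusted p = 0.101; 0.0438 with the animal as a block) and -1.55 ± 0.66 over all animals (adjusted p = 0.0518; 0.0427 with that block). The low ends of these values are the 4 samples not well above background. Under background correction by normexp, with an offset of 50, the 3 differences were 0.72, 0.06 and 0.39, the opposite sign. The median over all tested probes was then 0.48, 0.46 and 0.47. Beside it MSTN lay higher in treated animals, and lower in control animals and over all. Over all animals the MSTN difference was below 0 in 15 of 16 alternative settings and above 0 in 1, normexp. It passed in 6 of the 16, with adjusted p between 0.0158 and 0.208. The sign of MSTN over storage thus turned with the background correction, and its place beside the median turned under normexp in treated animals only.

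The remaining members did not pass over storage. IGF1 gave -0.55 ± 0.39 in treated and 0.07 ± 0.27 in control animals. IGF1R gave -0.24 ± 0.26 in treated and 0.03 ± 0.20 in control animals, and IGFBP3 -0.62 ± 0.38 in treated and 0.27 ± 0.29 in control animals. The signs of IGF1 and IGF1R turned under other scalings. The difference between treated and control animals in how a probe changed over storage, tested as an interaction, passed for 0 of 11 members and 0 (0%) of all tested probes in the limma fit. At an unadjusted p under 0.05 there were 534 probes, none of them a member. Marker genes moved over storage too, where 55.8% of all tested probes lay above 0 and 54.6% passed over all animals. Of 6 endothelial markers 6 lay above 0 and 5 passed over all animals, of 6 smooth muscle and pericyte markers 6 lay above 0 and 6 passed, of 8 fibroblast markers 0 lay above 0 and 4 passed as lower, with a median of -0.91, and of 4 tested adipocyte markers 0 lay above 0 and 2 passed as lower, with a median of -0.99. Their part in the members' changes was not tested.

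**Figure D3:**
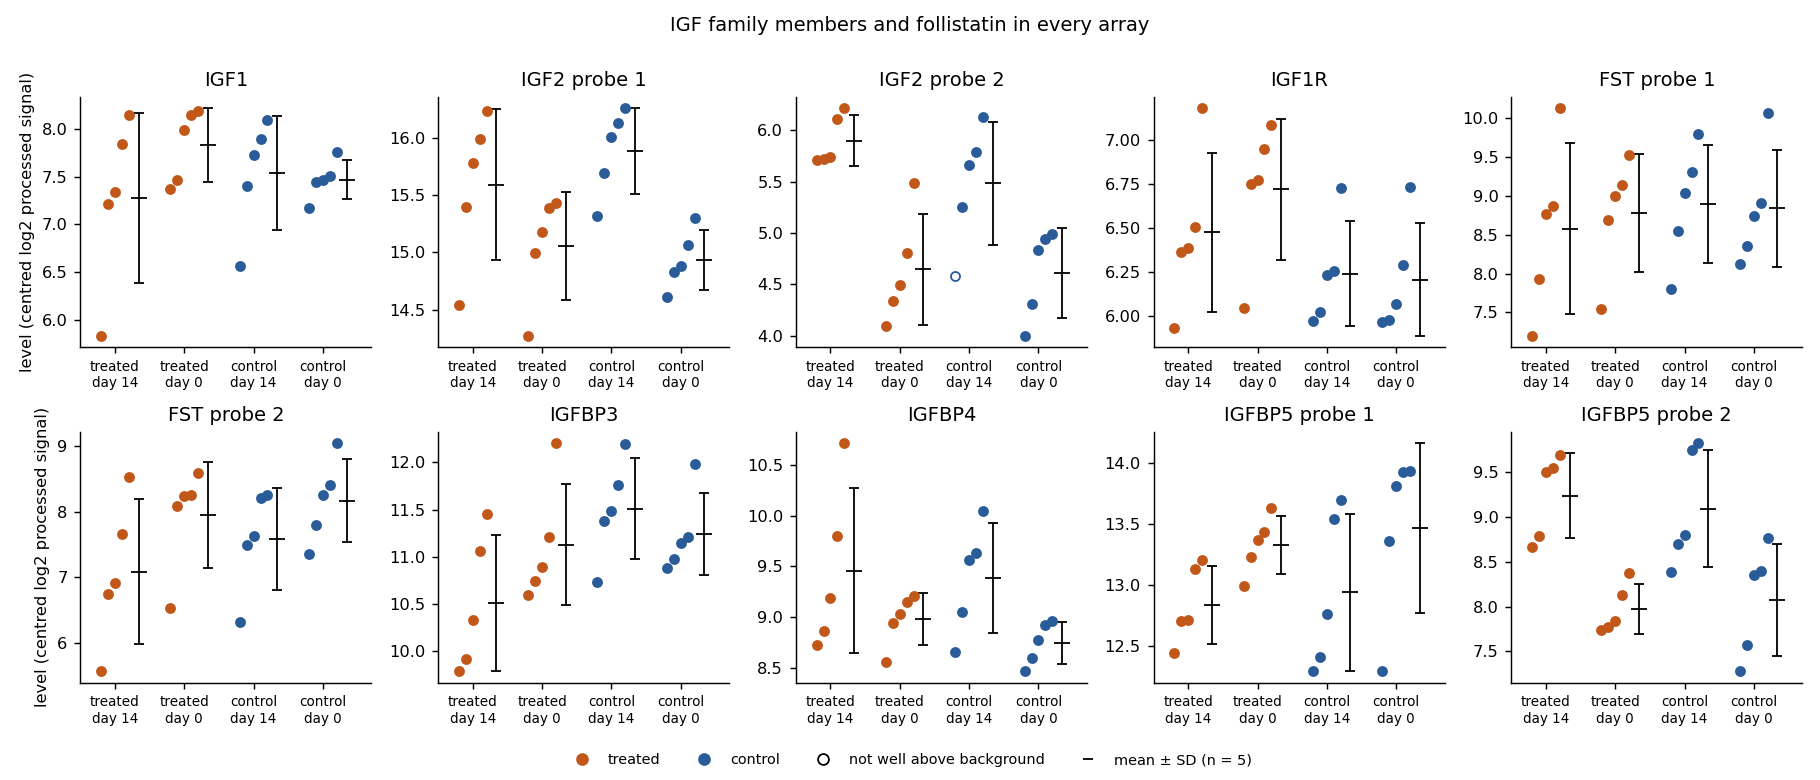
Level of each IGF family and FST probe in every array, as centred log2 processed signal, by treatment and day. Points are animals, open where not well above background, bars are mean ± SD of 5 samples, and each panel has its own axis. IGF2 and IGFBP5 probe 2 sit higher at day 14 than at day 0 in both treatments, and IGFBP5 probe 1 sits lower.

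**Figure D4:**
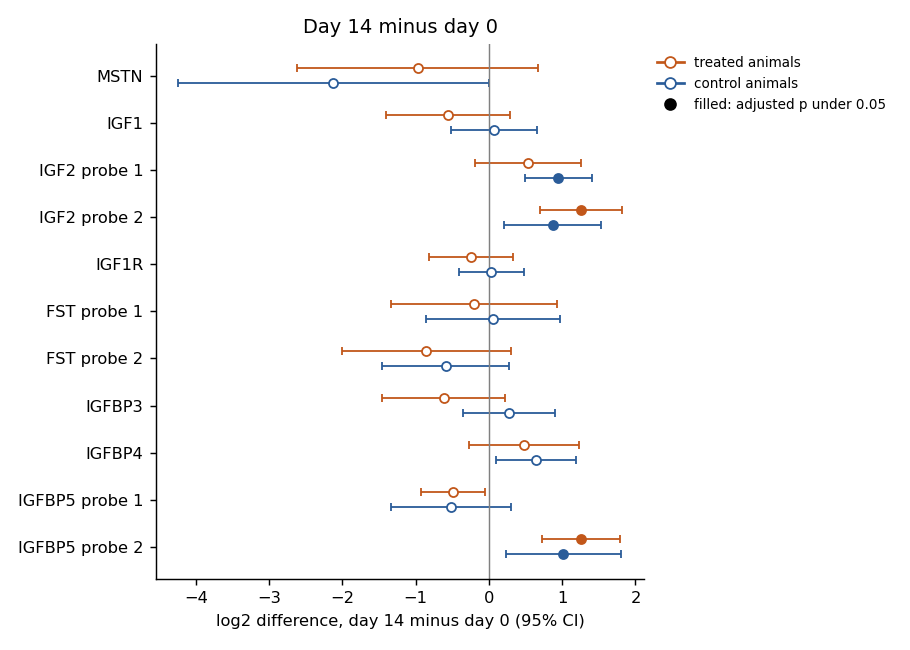
Difference between day 14 and day 0 on the log2 scale for the 11 probes, in treated and in control animals, with 95% confidence intervals and filled symbols for an adjusted p under 0.05. The fits did not use the pairing by animal. IGF2 probe 2 and IGFBP5 probe 2 are filled in both treatments, IGF2 probe 1 in control animals, and IGFBP5 probe 1 lies on the other side of 0.

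The wider pathway was read from 8 lists of 101 genes in all, of which 96 had a matched probe and 84 were tested, each through its brightest tested probe. At day 0, 3 of the 84 passed between treated and control muscle, or 3.57%, against 2.45% of all tested probes. By the lists used here all 3 fall on the IGF arm, and 3 calls are too few to set the arms apart. PIK3R1, a regulatory subunit of PI3-kinase, averaged 11.80 ± 0.41 in treated and 13.05 ± 0.29 in control muscle (SD, n = 5 each), a difference of -1.25 ± 0.22 (adjusted p = 0.0182). IRS2, the docking protein between the receptors of insulin and IGF1 and PI3-kinase, averaged 7.53 ± 0.33 in treated and 6.52 ± 0.41 in control muscle, 1.01 ± 0.23 higher in treated muscle (adjusted p = 0.0438). HTRA1, a secreted protease that cleaves IGF-binding proteins, averaged 13.22 ± 0.16 in treated and 13.91 ± 0.13 in control muscle, -0.69 ± 0.13 (adjusted p = 0.0233). The values of the groups did not overlap for any of these 3, against 5.88% of all tested probes. Since the 3 were named for passing on these same arrays, this is no separate support. PIK3R1 lost its call in 1 of 17 alternative settings, without K9 (adjusted p = 0.0526). HTRA1 lost it without K8, K9, K10, DE30, DE31 or DE32 (adjusted p between 0.0501 and 0.0685), and with the animal as a random replicate block on all arrays (adjusted p = 0.158). IRS2 lost it without any animal but K10 (adjusted p between 0.052 and 0.0942), with that block (adjusted p = 0.313) and with no filter on dim probes (adjusted p = 0.0712).

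Other probes of these genes gave smaller values or wider errors. The other 2 probes of PIK3R1 had -0.54 ± 0.24 and -0.57 ± 0.18, and the second HTRA1 probe -0.63 ± 0.22, all without passing. In the IGF1 receptor signalling list, 1 of 24 rose and 1 fell, and DDIT4, an inhibitor of mTOR that glucocorticoids induce, had -0.99 ± 0.26 (adjusted p = 0.0787). In the list of IGF receptors, binding proteins and proteases 1 of 9 fell, and INSR, the insulin receptor, had 0.56 ± 0.21 (adjusted p = 0.193).

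On the myostatin arm none passed at day 0 through its brightest probe: 0 of 9 ligands, 0 of 9 receptors, 0 of 12 binders and processing enzymes and 0 of 10 SMAD signalling genes, with medians between -0.26 and 0.03 beside -0.01 over all tested probes. SMAD7, the inhibitory SMAD that TGF-beta signalling itself induces, had -0.85 ± 0.22 (adjusted p = 0.0683), and its second probe -0.51 ± 0.12 (adjusted p = 0.0591). TCAP, a sarcomere protein that binds myostatin inside the fibre, had -0.37 ± 0.12 (adjusted p = 0.127), and SMAD3, a carrier of the myostatin signal, -0.55 ± 0.23 (adjusted p = 0.260). The second probe of TGIF1, a co-repressor of SMAD signalling, passed at 0.86 ± 0.15 (adjusted p = 0.0198), while its brighter probe gave 0.38 ± 0.31 (adjusted p = 0.593).

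In the growth hormone axis 0 of 9 passed at day 0. SOCS2 and SOCS1, feedback inhibitors of cytokine and growth hormone signalling, had 1.12 ± 0.38 (adjusted p = 0.154) and 0.80 ± 0.21 (adjusted p = 0.0772), and PTPN1, a phosphatase that acts on the insulin receptor and JAK2, had -0.51 ± 0.14 (adjusted p = 0.0831). GHR, the growth hormone receptor, had -0.15 ± 0.20 with one probe and 0.13 ± 0.17 with another. At day 14, 0 of the 84 pathway genes passed between treated and control muscle.

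**Figure D5:**
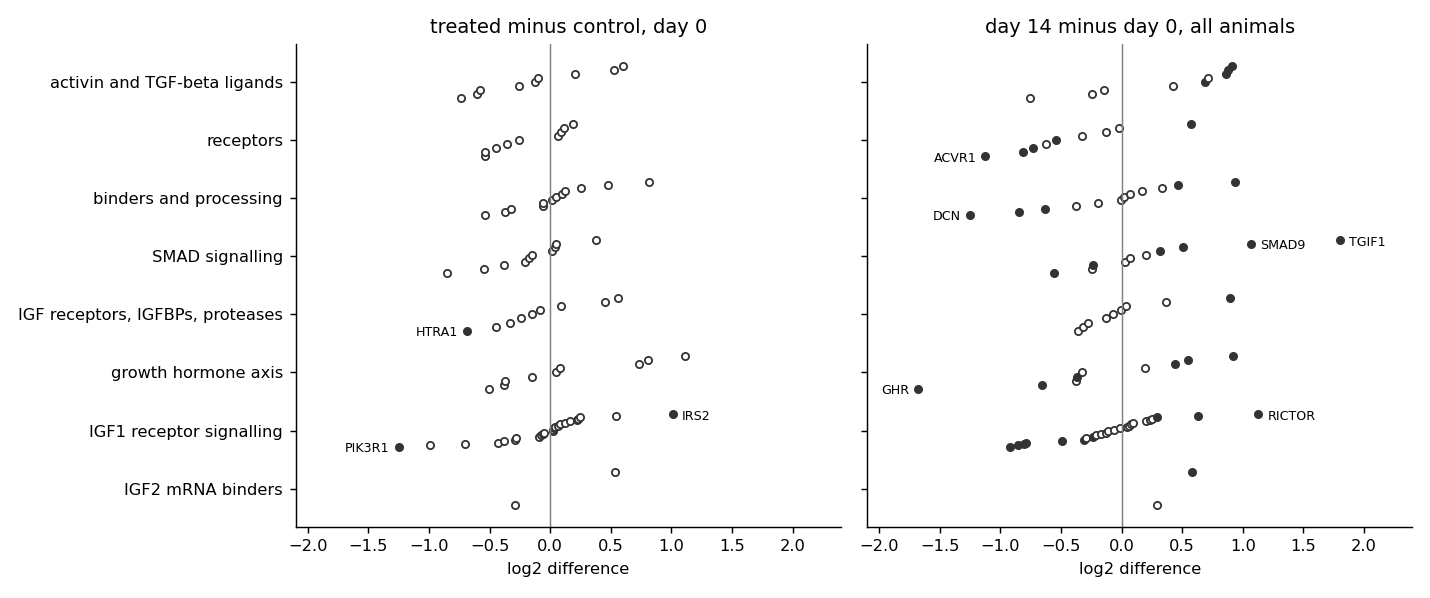
Log2 differences of the 84 tested pathway genes, grouped by list, between treated and control muscle at day 0 (left) and between day 14 and day 0 over all animals (right). Each point is a gene through its brightest tested probe, filled where the adjusted p was under 0.05. On the left HTRA1, PIK3R1 and IRS2 are filled, and on the right the filled points lie on both sides of 0.

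Over storage, 38 of the 84 pathway genes passed across all animals, or 45.2%, with 19 higher and 19 lower at day 14, against 54.6% of all tested probes. Under normexp, where the median over all tested probes was 0.47, 35 were higher and 19 lower, and 4 of the 38 turned their sign. With the animal as a block 31 passed, 30 of them among the 38. Of the ligands 4 of 9 rose, INHBB (0.88 ± 0.23) and TGFB1 (0.69 ± 0.16) among them. Of the receptors 4 of 9 fell, TGFBR2 (-0.73 ± 0.14) and ACVR1 (-1.13 ± 0.14, but 0.072 under normexp) among them, and ACVR2A, the activin receptor that shares ligands with ACVR2B, rose (0.58 ± 0.11). Among the SMAD genes 4 of 10 rose, TGIF1 (1.80 ± 0.26) and SMAD9 (1.07 ± 0.25) among them, and SMAD4 (-0.56 ± 0.11) and SMAD2 (-0.24 ± 0.09) fell, SMAD2 no longer passing without K3, K8, K9, K10, DE30, DE31 or DE32 (adjusted p between 0.0591 and 0.118) or with the animal as a block (0.0744). Among the binders 3 of 12 fell, DCN, which is also a fibroblast marker (-1.25 ± 0.27), and TCAP (-0.85 ± 0.22) included, while GREM1 (0.93 ± 0.29) and BMP1, a protease that frees myostatin from its propeptide (0.46 ± 0.17), rose. BMP1 no longer passed without K9, DE30 or DE31 (adjusted p between 0.0669 and 0.0989) or under normexp (0.0607). GREM1 no longer passed with quantile normalization (0.61, adjusted p = 0.0998) or with the series table (0.60, adjusted p = 0.0958).

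On the IGF side GHR fell by 1.68 on the log2 scale (SE 0.21), the change of the largest size among the named genes that fell. RHEB (-0.92 ± 0.16) and EIF4E (-0.85 ± 0.11), which act below AKT in translation, were among 7 of 24 IGF1 receptor signalling genes that fell, and RICTOR (1.13 ± 0.13) and IRS1 (0.63 ± 0.16) among 3 that rose. INSR rose (0.90 ± 0.15), as did SOCS3 (0.92 ± 0.26), STAT5A (0.44 ± 0.16) and the IGF2 mRNA-binding protein IGF2BP3 (0.58 ± 0.20), while STAT5B fell (-0.66 ± 0.19). Without DE31 the calls of STAT5A (adjusted p = 0.0514) and IGF2BP3 (adjusted p = 0.0539) were lost. With quantile normalization and with the series table, IGF2BP3 gave 0.28 and 0.22 (adjusted p = 0.257 and 0.343) and IRS1 gave 0.30 and 0.38 (adjusted p = 0.117 and 0.0721), so neither passed there. In control animals SOCS1 (0.97 ± 0.27), INHBA (1.43 ± 0.37) and SMURF1 (0.94 ± 0.24) rose and ACVR1B fell (-0.69 ± 0.23), and in treated animals SOCS2 fell (-0.80 ± 0.26). Each of these 5 calls was lost when single animals were left out: INHBA without K6, SOCS1 without K6 or K9, SMURF1 without K8 or K9, ACVR1B without K6, K8 or K9, and SOCS2 without DE27, DE29, DE30 or DE32, with adjusted p between 0.0516 and 0.168. They were also lost for SOCS1 with the animal as a block (adjusted p = 0.0532), SMURF1 with the series table (0.0630), ACVR1B under normexp (0.0834) and SOCS2 with the scan session as a block (0.0567). Probes of a gene often disagreed over storage, as for IGFBP5. The second GHR probe gave -0.11 ± 0.16, the second SMAD7 probe 1.18 ± 0.15 against -0.25 ± 0.18 for the first, and the second SMAD3 probe 1.16 ± 0.26 against 0.03 ± 0.16.

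Across the 10 arrays of day 0, the genes whose levels followed those of MSTN most closely, among 10459 probes well above background on all 10, were HLF (Pearson r = 0.93, Spearman rho = 0.89), PIK3R1 (r = 0.93, rho = 0.92) and DUSP7 (r = 0.93, rho = 0.94). These points share treatment groups, so each r was also taken on deviations from the group means, which gave 0.87, 0.85 and 0.84. Without the 2 arrays farthest from the median MSTN level the r was 0.86, 0.89 and 0.90. HLF, PIK3R1 and DUSP7 were picked among 10459 probes for their high r on these same 10 arrays. The r on deviations and the r without 2 arrays are therefore no separate check, and they describe these arrays only. HLF is a transcription factor of the PAR bZIP family and DUSP7 a phosphatase of MAP kinases, and neither passed between treated and control muscle (-0.67 ± 0.25 and -0.44 ± 0.16).

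Among the nearest genes to the other members over the same 10 arrays were TDRD7, ANKRA2 and DOP1B for FST, AK3 and TBC1D2 for IGF1, NELFE, LIMS2 and GSTZ1 for IGF1R, and RAPH1 and SRSF5 for IGF2 probe 1. For the binding proteins they were ATF7, PLPP3 and THTPA for IGFBP3, PIAS4, OCEL1 and NFAM1 for IGFBP4, and FITM1, PGM1 and MITF for IGFBP5 probe 1. The Pearson r of these pairs ran between 0.88 and 0.94 and is a description of 10 arrays. For IGFBP3 and ATF7 it was 0.92 and became 0.40 without the 2 arrays farthest from the median, so it rested on those. The r of IGFBP3 with PLPP3 and with THTPA, 0.91 each, became 0.63 and 0.69 without these 2 arrays.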

How the data were processed

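Per the file headers, the scanner files came from Agilent Feature Extraction 9.5.1.1, and the deposited processed signal is an intensity that the authors' software had background-subtracted and detrended. A table of the whole series holds the authors' processed intensity, with centring and scale not given in the sources used here; on each array it followed the log2 processed signal with r between 0.9986 and 1.000, and it was used as an alternative. Per the submitters' processing notes, R 2.11.1 was used. The labels' free-text description gave days that contradict titles and characteristics and was not used. 1 treated title lacks a letter of the animal's name and was read by its number.

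Here log2 processed signal was centred on each array's 75th percentile, outlier spots (935 over all arrays) were left out, the 2 spots of a probe were averaged, and 6045 probes well above background on under 5 arrays were removed. limma 3.58.1 in R 4.3.3 fitted each comparison. Its test was checked on simulated data with independent arrays and the same spread on all arrays of a probe. The simulation held no animal pairing, slide, session or dim-signal effect, so the check does not cover these. Gene names came from the files and from a RefSeq gene table. The same animals gave both days, which pairs them by label; own-animal correlations of deviations lay between -0.15 and 0.28. Members and lists were chosen with earlier results of these data known. Named pathway genes were those that passed between treatments, the 3 with the smallest p per list at day 0, and the 2 with the smallest p per direction and list over storage. 1 further TGIF1 probe and second probes were added after their values were seen. The number of arrays, 20, limits the precision. Some genes nearest in pattern to members are not reported here.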

Additional observations from a re-analysis of the deposited data

Results flagged for a closer look

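Of 44 sets of 5 samples examined for a sample far from the others, 1 had such a sample, and chance alone marks about 1 set in 20. FST probe 2 in treated muscle at day 0 was lowest in DE30, at 6.53, with the nearest sample at 8.09, a gap of 0.758 of the group's range. FST probe 1 was also lowest in DE30 in that group, at 7.54. Without DE30 the difference between treated and control muscle at day 0 was 0.12 for probe 2, against -0.23 with it, and neither value passed.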

How the results depend on the processing

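None of the 11 probes passed between treatments at either day under the alternatives run, except MSTN at day 0 with the slide as a block, which made the number of members that passed 1 there. Over storage 1 member passed in treated animals with the authors' series table, where 2 of the 11 probes, IGF2 probe 2 and MSTN, were not tested, and 1 in control animals with quantile normalization and between 1 (without K3, K8 or K9) and 5 (without K10) with an animal left out. The number of probes that passed between treatments at day 0 was 378, and it was 230 with no filter on dim probes, 203 with the animal as a random replicate block on all arrays, and between 135 and 312 with an animal left out, at most 244 without K8, K9, K10, DE29, DE31 or DE32. At day 14 it was 11, and it was 1 under normexp, 0 with the slide as a block in limma (969 at an unadjusted p under 0.05), 3 with the scan session as a block, 108 with that replicate block, and between 0 and 12 with an animal left out, 0 without K3, K8, K9, K10, DE29 or DE30 and 2 without DE27. Over storage it was 4563 in treated animals, against 8825 under normexp, 8733 with no filter and between 2428 and 5703 with an animal left out (2428 without DE32, 2502 without DE31 and 2674 without DE29); it was 6040 in control animals, between 3239 (without K9) and 6661 with an animal left out, and 8418 over all animals, against 13298 with no filter. The share of higher among these was 60.1% in treated animals, 55.5% in control animals and 57.2% over all, against 46.6%, 46.5% and 48.4% with quantile normalization, 46.0%, 47.8% and 48.7% with the series table, 80.7%, 77.1% and 75.7% under normexp, and 77.1%, 69.5% and 72.6% with no filter. The median difference of all probes was then 0.48, 0.46 and 0.47 under normexp. As a paired fit, the animal as a replicate block gave 4003, 5477 and 8314 probes over storage in treated, control and all animals; beside the member values given with their results, it changed no other member's call. Signs turned in these values, none of which had passed, and the cause was not tested. Under normexp, storage gave 0.72 for MSTN, 0.46 for IGF1R, 0.072 for IGF1 and 0.018 for FST probe 1 in treated animals, 0.060 for MSTN in control animals, and 0.39 for MSTN, 0.56 for IGF1R (adjusted p = 0.0130), 0.23 for IGF1 and 0.10 for FST probe 1 over all. Treatment gave -0.025 for IGF2 probe 2 at day 0 and 0.0040 for IGF1 at day 14 under normexp. In control animals storage gave -0.22 for IGF1R and -0.036 for IGF1 with quantile normalization, and -0.18 for IGF1R and -0.044 for IGF1 with the series table. For FST probe 1 the slide as a random block gave -0.10 in control animals, and the session as a block gave 0.071 between treatments at day 14, 0.13 over storage in treated and -0.12 in control animals, and 0.26 for the interaction. The interaction was 0.028 for FST probe 2 and 0.064 for IGFBP4 with the session as a block, and -0.018 for IGFBP5 probe 1 with the series table. With both probes of a gene averaged, IGF2 gave 0.062 and IGFBP5 0.022 between treatments at day 14, and storage gave 0.39, 0.24 and 0.32 for IGFBP5 in treated, control and all animals and -0.27 for FST in control animals. With an animal left out, the values whose sign turned ran as follows. At day 0 between treatments they were -0.18 to 0.17 for IGF2 probe 2, -0.25 to 0.25 for FST probe 1, -0.43 to 0.12 for FST probe 2, -0.38 to 0.076 for IGFBP3 and -0.30 to 0.070 for IGFBP5 probe 2. At day 14 they were -1.29 to 0.094 for MSTN, -0.50 to 0.10 for IGF1, -0.71 to 0.023 for FST probe 1, -0.24 to 0.25 for IGFBP4, -0.26 to 0.085 for IGFBP5 probe 1 and -0.028 to 0.33 for IGFBP5 probe 2. Over storage they were -0.59 to 0.15 for FST probe 1 in treated animals, -0.35 to 0.63 for FST probe 1, -0.068 to 0.22 for IGF1R and -0.079 to 0.23 for IGF1 in control animals, and -0.27 to 0.17 for FST probe 1 and -0.34 to 0.075 for IGFBP3 over all. For the interaction they were -0.84 to 0.14 and -0.80 to 0.19 for FST probes 1 and 2, -0.49 to 0.077 for IGFBP4, and -0.22 to 0.25 and -0.10 to 0.56 for IGFBP5 probes 1 and 2. Dim signal limits MSTN at day 14 and IGF2 probe 2, which was not well above background in K6 at day 14.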

Other observations

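A probe described as similar to the precursor of the IGF1 receptor, LOC619174, carries no symbol of a listed gene. It was well above background on 1 of 20 arrays and was not tested.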
